A study of Rattus norvegicus with 8 samples.

Results

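The genes described here are 44 lysosomal hydrolases, their activators, lysosomal membrane proteins and transcription factors of the lysosome, taken from a list of gene names whose rule uses no measured value, although the list was drawn up with earlier results of these data known. A member was measured where the platform annotation of a probe set gave its symbol alone, and 40 of the 44 had such a probe set, of 18166 genes in all. Ctsz, Gaa, Naglu and Sgsh had none and were not analysed here. Messenger RNA came from the thoracic spinal cord of rats (Long Evans, male, close to 175 days old and 400 g in weight) and was measured on 8 Affymetrix Rat Gene 2.0 ST arrays. SCI stands for 4 arrays of rats with an injury of the thoracic cord and sham for 4 arrays of rats with the laminectomy alone. Both groups recovered on chow for 4 weeks and then ate a high-fat diet with 40% of fat. The labels state 8 weeks in total, without saying whether that is the diet or the whole study, and place the tissue at segments 10 to 11 in one field and 11 to 12 in another. The level of the lesion itself was not among the labels used here. Each array title carries a number of its own, but the labels do not say that it numbers an animal. If arrays shared a source, the p-values below would measure only a technical spread.

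Lysosomes are acidic compartments in which hydrolases take apart proteins, glycans and lipids that reach them by endocytosis, phagocytosis and autophagy. Soluble enzymes are sorted there by mannose 6-phosphate receptors and other receptors, heavily glycosylated membrane proteins line the compartment, and the transcription factors TFEB and TFE3 bind a promoter element of lysosomal genes called CLEAR. In the injured cord, microglia and invading macrophages take up myelin debris, and inherited loss of single hydrolases causes storage diseases of the nervous system.

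The deposited values are RMA values on a log2 scale, on which signal doubles with each step of 1, and array medians over all probe sets were 3.73 to 3.81. The 12 microglia and macrophage markers were all higher in SCI, with differences of 0.43 to 2.12 and a median of 1.60, and their mean level was 6.20 to 6.50 on sham arrays and 7.51 to 7.98 on SCI arrays. Of the dimmer marker lists, T cell markers averaged 2.63 to 2.81 in sham and 2.99 to 3.20 in SCI, and neutrophil markers 2.87 to 3.29 and 3.31 to 3.68. Of 6 T cell markers only Cd8a (1.48) and Cd3g (0.49) were called higher, and of 6 neutrophil markers only Mmp8 (1.43). Fibroblast markers averaged 6.49 to 7.01 in sham and 7.31 to 7.85 in SCI, and Schwann cell markers 4.77 to 5.18 and 5.46 to 5.90. Neuronal markers (8 of 8 called) and oligodendrocyte markers (6 of 7) were lower in SCI. Astrocyte markers averaged 8.39 to 8.50 in sham and 8.64 to 8.65 in SCI, but of 7 measured 2 were called higher and 1 lower. Endothelial markers averaged 5.88 to 6.22 in sham and 5.98 to 6.11 in SCI, and of 5 measured 1 was called higher and 0 lower. Of 7 measured markers of spinal cord position 0 rose and 2 fell, Hoxa7 (-0.41) and Slc6a5 (-0.67), with a list median of -0.36. Hoxc8, a thoracic Hox gene and the 1 positive estimate of that list, averaged 8.08 in sham and 8.13 in SCI. The tissue is whole cord, so a change in the number of cells of a type and a change in RNA per cell cannot be told apart in any value below.

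Most of the lysosomal hydrolases were higher in injured cord, while the 2 transcription factors of the list did not pass the test. Of 40 members, 28 rose (70.0%) and 0 fell at a limma adjusted p under 0.05, the threshold at which a gene is called here. Of all genes tested 14.2% were called, 7.10% higher and 7.06% lower. At an unadjusted limma p under 0.05, 29 members were higher and 1 was lower, a cut at which the share of all genes was not counted. A rise of at least 2-fold was seen in 15 members, against 1.45% of all genes. In 29 members every SCI array lay above every sham array (9.36% of all genes), and in 1 every SCI array lay below (10.9% of all genes). The median difference over the 40 members was 0.79 on the log2 scale, against -0.01 over all genes, and 9 members stood among the 100 largest differences of all genes. Without SCI 3, sham 1 and sham 2, 23 members rose and 0 fell. These 3 arrays lay between -17.18 and -12.62 on the second principal component of all genes (11.2% of the variance), and the other 5 between 4.53 and 14.79.

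**Figure D1:**
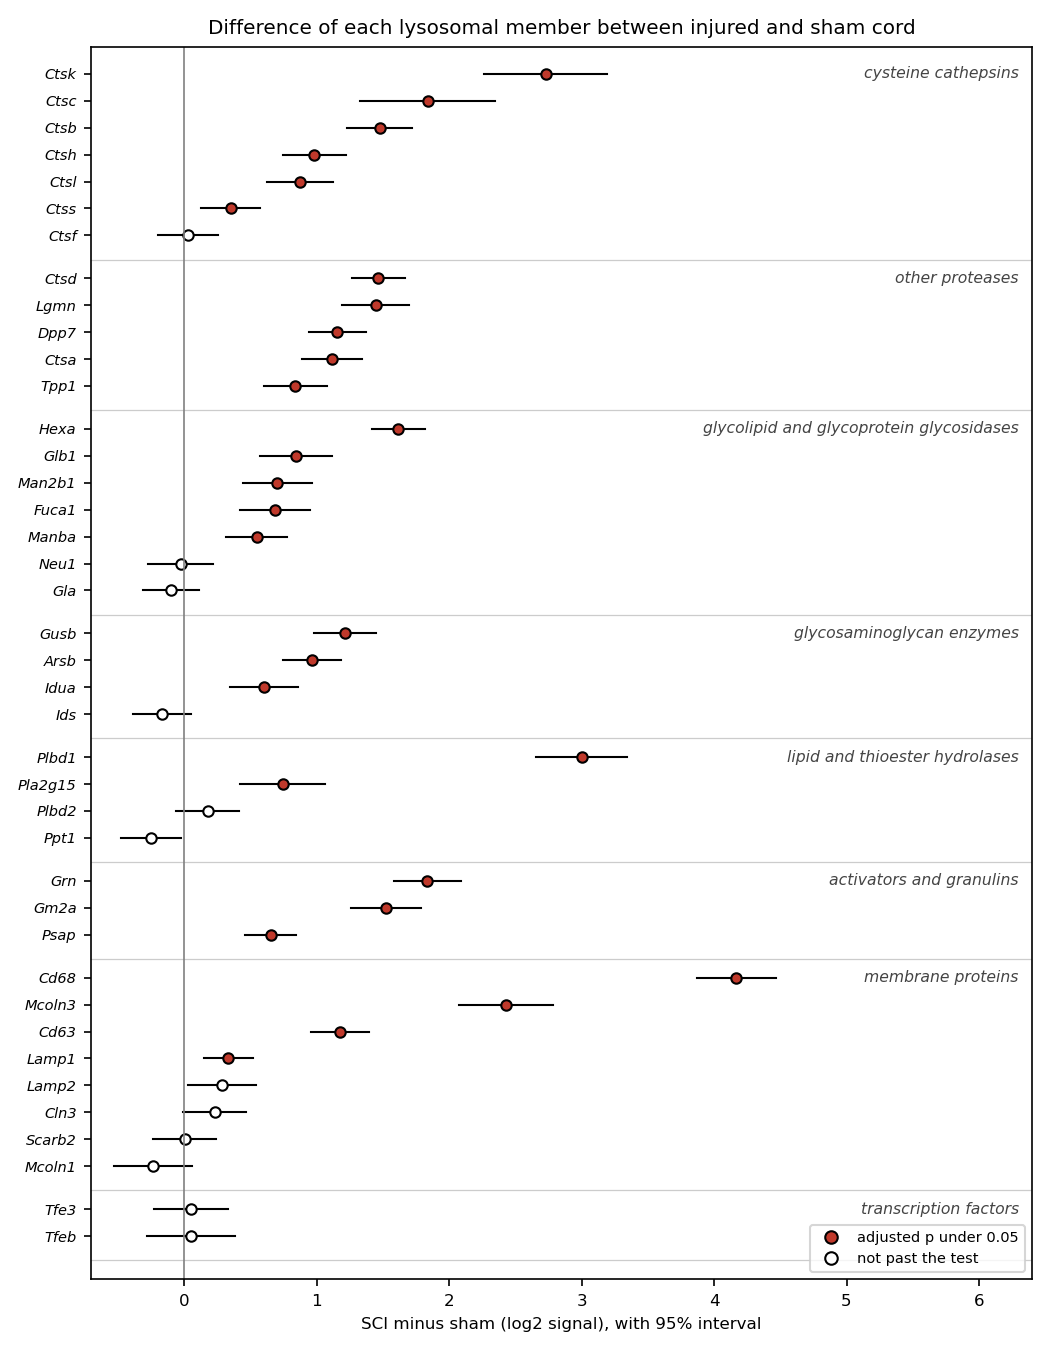
Difference between SCI and sham (log2 signal, x axis) for each of the 40 measured members, in their enzyme classes; points are limma estimates, bars 95% intervals, and filled points passed the adjusted test. Cd68 stands farthest to the right at 4.17, the 2 transcription factors lie close to 0, and 12 members are open points.

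Among the proteases, most of the cysteine cathepsins and all of the other proteases rose. Of 7 measured cysteine cathepsins 6 rose, with a class median of 0.98. Ctsk (probe set 17740855), the collagen-degrading cathepsin of osteoclasts and macrophages, stood at 5.12, 4.73, 5.11 and 5.33 on sham arrays 1 to 4 and at 8.02, 7.88, 8.17 and 7.14 on SCI arrays 1 to 4. Every SCI array was above every sham array, and SCI 4 was the lowest of the injured. The difference was 2.73 (SE 0.21, limma adjusted p = 3.2e-05), a 6.64-fold rise. Ctsc, the dipeptidyl peptidase that activates serine proteases of leukocytes, rose by 1.84 (SE 0.23, limma adjusted p = 5.9e-04) from a scattered sham group with an SD of 0.56, against 0.15 in SCI. The endopeptidase Ctsb rose by 1.48, the aminopeptidase Ctsh by 0.98 and the endopeptidase Ctsl by 0.87.

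Ctss and Ctsf did not share the size of these rises. Ctss (probe set 17740865), the cathepsin of antigen-presenting cells that trims the invariant chain, was at 9.82, 9.67, 9.94 and 10.05 in sham and at 10.22, 10.26, 10.23 and 10.18 in SCI. The groups did not overlap, but the difference was 0.35 (95% interval 0.13 to 0.58, limma adjusted p = 0.041), below the smallest of the 12 microglia and macrophage markers (0.43, Cx3cr1). Its call was lost without any 1 array other than sham 4 (adjusted p of 0.059 to 0.10). Ctsf, a broadly expressed cysteine cathepsin, ran from 7.51 to 7.75 in sham and from 7.54 to 7.82 in SCI (difference 0.03, 95% interval -0.19 to 0.26).

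The 5 other proteases all rose, by 0.84 to 1.47, with a class median of 1.16. Ctsd (probe set 17638603), the aspartic cathepsin, was at 9.37, 9.44, 9.56 and 9.52 in sham and at 10.91, 11.05, 10.88 and 10.92 in SCI. The SDs were 0.08 and 0.07, so the distance between the groups was many times the spread within them (difference 1.47, SE 0.09, limma adjusted p = 9.1e-06). Lgmn, the asparaginyl endopeptidase that matures several cathepsins, rose by 1.45 (SE 0.11) and varied more in SCI, where SCI 4 was at 9.11 and the others at 9.45 to 9.54. The dipeptidyl peptidase Dpp7 rose by 1.16, the carboxypeptidase Ctsa, which also protects neuraminidase and beta-galactosidase, by 1.11, and the tripeptidyl peptidase Tpp1, deficient in a form of Batten disease, by 0.84.

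**Figure D2:**
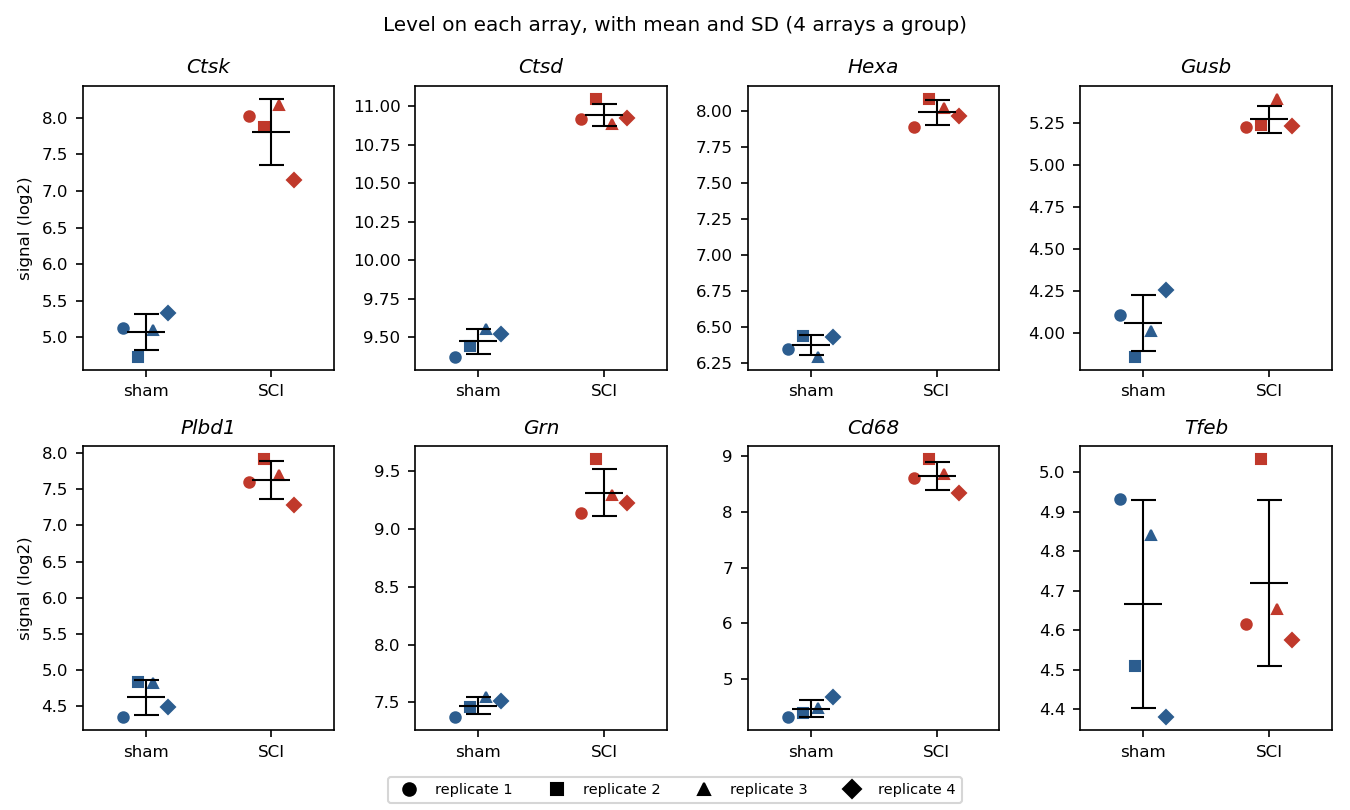
Log2 signal (y axis) on each array for the member with the largest absolute difference in each of 7 classes and for Tfeb; symbols give the replicate, horizontal bars the mean and error bars the SD of 4 arrays, and each panel has its own y range. In the first 7 panels the groups do not overlap, while those of Tfeb do (4.38 to 4.93 in sham, 4.58 to 5.03 in SCI).

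Glycosidases rose less evenly. Of 7 measured enzymes of glycolipids and glycoproteins, 5 rose and the class median was 0.69. Hexa (probe set 17844689), the alpha subunit of beta-hexosaminidase that is lost in Tay-Sachs disease, was at 6.34, 6.44, 6.29 and 6.43 in sham and 7.89, 8.09, 8.03 and 7.97 in SCI. Both groups were tight, with SDs of 0.07 and 0.08 (difference 1.62, SE 0.09, limma adjusted p = 4.2e-06). The beta-galactosidase Glb1 followed with 0.85 and the alpha-mannosidase Man2b1 with 0.70, then the fucosidase Fuca1 with 0.69 and the beta-mannosidase Manba with 0.55. Without SCI 3, sham 1 and sham 2, Glb1 (adjusted p = 0.051) and Manba (adjusted p = 0.080) lost their call, which left 3 of the class.

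Gla and Neu1 showed no such difference. Gla, the alpha-galactosidase of globotriaosylceramide that is deficient in Fabry disease, was at 5.92, 5.97, 6.20 and 6.13 in sham and at 5.93, 6.00, 5.97 and 5.94 in SCI (difference -0.10, 95% interval -0.31 to 0.11, limma adjusted p = 0.59). The sialidase Neu1 was at 4.08 to 4.48 in sham and 4.18 to 4.28 in SCI (difference -0.03, 95% interval -0.27 to 0.22). The SCI values of both lay inside the sham range, and both intervals end below the lower interval bound of every called glycosidase in this class (0.32 or higher).

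Among 4 measured enzymes of glycosaminoglycan breakdown, which take apart heparan, dermatan and chondroitin sulfate, 3 rose (class median 0.79). Gusb (probe set 17673329), the beta-glucuronidase, went from 4.11, 3.86, 4.01 and 4.25 in sham to 5.23, 5.24, 5.39 and 5.24 in SCI. Even the highest sham array, sham 4, lay well below the lowest SCI array (difference 1.22, SE 0.11, limma adjusted p = 6.5e-05). The arylsulfatase Arsb, which acts on dermatan and chondroitin sulfate, rose by 0.97 and the iduronidase Idua by 0.60, though Idua lost its call without SCI 3, sham 1 and sham 2 (adjusted p = 0.055). The iduronate sulfatase Ids, which acts on the same chains just before Idua, was at 7.16, 7.40, 7.41 and 7.34 in sham and 7.04, 7.18, 7.30 and 7.13 in SCI. Its groups overlapped and its estimate was negative (-0.17, 95% interval -0.39 to 0.05, limma adjusted p = 0.34).

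The lipid and thioester hydrolases were split between 2 that rose and 2 that did not pass, with a class median of 0.46. Plbd1 (probe set 17795908), a phospholipase B-like protein of granulocytes and macrophages, was at 4.35, 4.83, 4.82 and 4.49 in sham and at 7.60, 7.92, 7.69 and 7.29 in SCI. It rose 8.01-fold (3.00, SE 0.16, limma adjusted p = 2.9e-06), and SCI 4 was again the lowest injured array. Pla2g15, the lysosomal phospholipase A2, rose by 0.74 (SE 0.14). Plbd2, the relative of Plbd1, ran from 6.56 to 6.87 in sham and from 6.81 to 7.09 in SCI (0.18, 95% interval -0.06 to 0.42). Ppt1, the palmitoyl-protein thioesterase that is lost in infantile Batten disease, was at 9.15, 8.89, 9.02 and 9.21 in sham and at 8.85, 8.69, 8.89 and 8.84 in SCI. It was the member whose SCI arrays all lay below the sham arrays, by a very small margin, and it did not pass the test (-0.25, 95% interval -0.47 to -0.02, limma adjusted p = 0.14).

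All 3 non-enzymatic partners of the hydrolases rose, with a class median of 1.53. Grn (probe set 17651535), the progranulin precursor whose granulins reside in lysosomes, was at 7.37, 7.46, 7.55 and 7.51 in sham and at 9.14, 9.60, 9.29 and 9.22 in SCI. SCI 2 was the highest of the injured arrays (difference 1.84, SE 0.11, limma adjusted p = 9.3e-06). Gm2a, the GM2 activator that presents ganglioside to the hexosaminidase, rose by 1.53 (SE 0.12), close to the 1.62 of Hexa. Psap, the precursor of the saposins that help glucosylceramidase and other enzymes reach their lipids, was on the bright side of the array at 10.68 ± 0.03 in sham and rose by 0.65 to 11.33 ± 0.08 (log2, SD, n = 4).

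The membrane proteins held both the largest rise of all members and several with no detected change. Of 8, 4 rose, and the class median was 0.31. Cd68 (probe set 17657767), the macrophage relative of the LAMP proteins, went from 4.33, 4.40, 4.49 and 4.68 in sham to 8.61, 8.94, 8.68 and 8.34 in SCI. It had the second largest difference of all 18166 genes (4.17, SE 0.14, limma adjusted p = 8.8e-08). Mcoln3 (probe set 17743371), a calcium channel of the mucolipin family, was dim in sham, at 3.86, 3.40, 3.90 and 3.18, and stood at 5.91, 6.12, 5.92 and 6.10 in SCI. Its rise was 5.38-fold (2.43, SE 0.16, limma adjusted p = 1.5e-05). The tetraspanin Cd63, found on late endosomes and lysosomes, rose by 1.18 (SE 0.10).

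Lamp1 and Lamp2, the most abundant proteins of the lysosomal membrane, had small differences. Lamp1 was at 10.18, 10.11, 10.14 and 10.21 in sham and at 10.42, 10.56, 10.47 and 10.53 in SCI (0.33, 95% interval 0.15 to 0.52, limma adjusted p = 0.024). The groups did not overlap, yet the call was lost without SCI 2 (0.070), sham 1 (0.050), sham 2 (0.056) or sham 3 (0.057). Lamp2 was at 9.86, 9.67, 10.19 and 10.05 in sham and between 10.22 and 10.24 on all SCI arrays, with an SD of 0.01 in SCI and 0.23 in sham (0.29, 95% interval 0.03 to 0.55, limma adjusted p = 0.14). Cln3, the Batten disease protein, had 0.23 (95% interval -0.01 to 0.47), and Scarb2, the sorting receptor of glucosylceramidase, 0.00 (95% interval -0.23 to 0.24). Mcoln1, the mucolipin lost in mucolipidosis type IV, had -0.23 (95% interval -0.53 to 0.06).

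Some related genes moved unequally within the same arrays. These pairs were chosen with their values known, so the gaps are descriptions with no test. The log2 gap between Plbd1 and Plbd2, set to a mean of 0 in sham, ran from -0.34 to 0.36 on sham arrays and from 2.57 to 2.97 on SCI arrays. For Mcoln3 and Mcoln1 it ran from -0.51 to 0.60 in sham and from 2.49 to 3.02 in SCI. For Lamp1 and Lamp2 the gap ran from -0.26 to 0.22 in sham and from -0.02 to 0.12 in SCI, so no shift beyond the sham spread was seen between these 2.

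**Figure D3:**
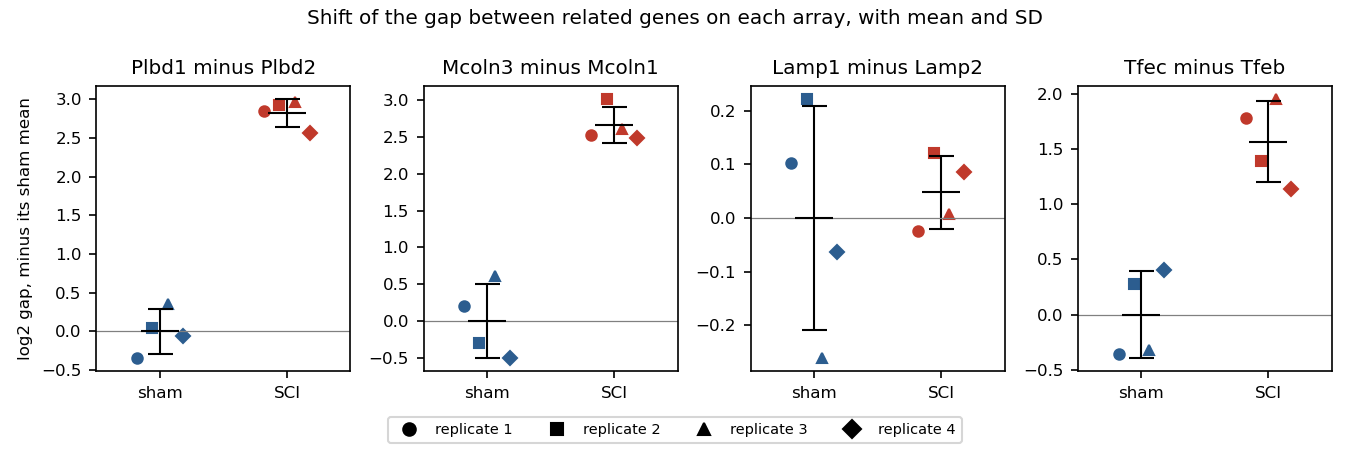
Log2 gap between probe sets of related genes on each array, minus the mean gap of the sham arrays (y axis); symbols give the replicate, bars the mean and SD of 4 arrays, and each panel has its own y range. The SCI arrays lie apart from sham for Plbd1 minus Plbd2, Mcoln3 minus Mcoln1 and Tfec minus Tfeb, and among them for Lamp1 minus Lamp2.

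The transcription factors of the list did not pass the test. Tfeb (probe set 17862611) was at 4.93, 4.51, 4.84 and 4.38 in sham and at 4.62, 5.03, 4.65 and 4.58 in SCI (0.05, 95% interval -0.28 to 0.38, limma adjusted p = 0.87). Tfe3 was at 5.41, 5.44, 5.64 and 5.52 in sham and at 5.78, 5.22, 5.63 and 5.61 in SCI (0.05, 95% interval -0.22 to 0.33, limma adjusted p = 0.85). Both genes overlapped between the groups, and the arrays measure their messenger RNA, not the entry of the proteins into the nucleus by which they are mainly regulated. Of the 2 other genes of this family, which are not members, Mitf had 0.18 (limma adjusted p = 0.40). Tfec, which is expressed mainly in macrophages, was very dim in sham at 2.13, 2.35, 2.08 and 2.34 and stood at 3.96, 3.99, 4.17 and 3.27 in SCI, a rise of 1.62 (SE 0.18, limma adjusted p = 2.5e-04). The gap between Tfec and Tfeb ran from -0.36 to 0.40 in sham and from 1.14 to 1.96 in SCI, relative to the sham mean.

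The element these factors bind was looked for in the members' promoters, from 250 bases before to 50 bases after the annotated start (RefSeq sequences, GRCr8, both strands). The letters searched were the E-box core CACGTG, the longer form TCACGTGA, which contains the core, and a 10-letter form that adds a G before and a C after it. Of the 44 members 38 had a promoter in the table (not Ctsb, Hexa, Arsb, Plbd2, Ppt1 and Psap), and 11 of them (28.9%) held the core, against 7.86% of 14564 promoters of tested genes and 6.42% of all 33469 promoters. The 8-letter form was in 4 (10.5%), against 1.18% of tested genes, and the 10-letter form in 0, against 0.378%. The windows below are shown because they hold the core upstream of the start in members that were measured. Differences of their genes run from the 1.47 of Ctsd to the -0.23 of Mcoln1. Plbd1 (3.00) and Idua (0.60) were measured and hold the core too, but not wholly upstream of the start, and are not shown. Each is printed 5′ to 3′ on the gene's own strand, and capitals mark the core. Position 0 is the annotated start and minus signs mark bases before it.
Ctsd: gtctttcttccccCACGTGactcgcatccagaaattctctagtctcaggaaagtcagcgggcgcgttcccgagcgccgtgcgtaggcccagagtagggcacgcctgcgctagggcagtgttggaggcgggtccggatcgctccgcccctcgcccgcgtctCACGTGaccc
Cd63: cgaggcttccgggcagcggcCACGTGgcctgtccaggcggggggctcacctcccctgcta
Glb1: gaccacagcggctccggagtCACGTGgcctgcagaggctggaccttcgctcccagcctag
Lamp1: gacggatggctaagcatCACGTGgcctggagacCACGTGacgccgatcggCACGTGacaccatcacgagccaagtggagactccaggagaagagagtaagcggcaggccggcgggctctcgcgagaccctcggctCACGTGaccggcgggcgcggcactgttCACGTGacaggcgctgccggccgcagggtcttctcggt
Cln3: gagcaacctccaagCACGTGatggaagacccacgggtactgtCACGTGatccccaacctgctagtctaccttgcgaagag
Ctsf: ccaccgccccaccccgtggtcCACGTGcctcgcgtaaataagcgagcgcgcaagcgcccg
Mcoln1: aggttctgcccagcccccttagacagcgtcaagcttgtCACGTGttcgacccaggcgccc

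In GRCr8 the Ctsd window is chr1:206968822-206968991 on the minus strand and reaches from position -170 to -1. The Cd63 window is chr7:1921934-1921993 on the plus strand and the Glb1 window chr8:122963598-122963657 on the plus strand. The Lamp1 window is chr16:83075064-83075263 on the minus strand, and the Cln3 window is chr1:190597930-190598009 on the minus strand. The Ctsf window is chr1:211581999-211582058 and the Mcoln1 window chr12:6358198-6358257, both on the plus strand.

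The number of cores did not order the members by their rise. Lamp1 held 5 cores, 2 of them within the 8-letter form, and had a difference of 0.33. Ctsd, Cln3 and Mcoln1 held 2 each, 1 of them within the 8-letter form, with differences of 1.47, 0.23 and -0.23. Cores that touch or follow the start were found in Plbd1 (first base at position 2), Idua (-3) and Mcoln1 (4). Of 9 measured members with the core 6 rose, with a median difference of 0.60, and of 25 measured members with a promoter but no core 18 rose, with a median of 0.84. These are descriptions of letters in a window: a match is not a bound site, and its absence says nothing about the factor.

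**Figure D4:**
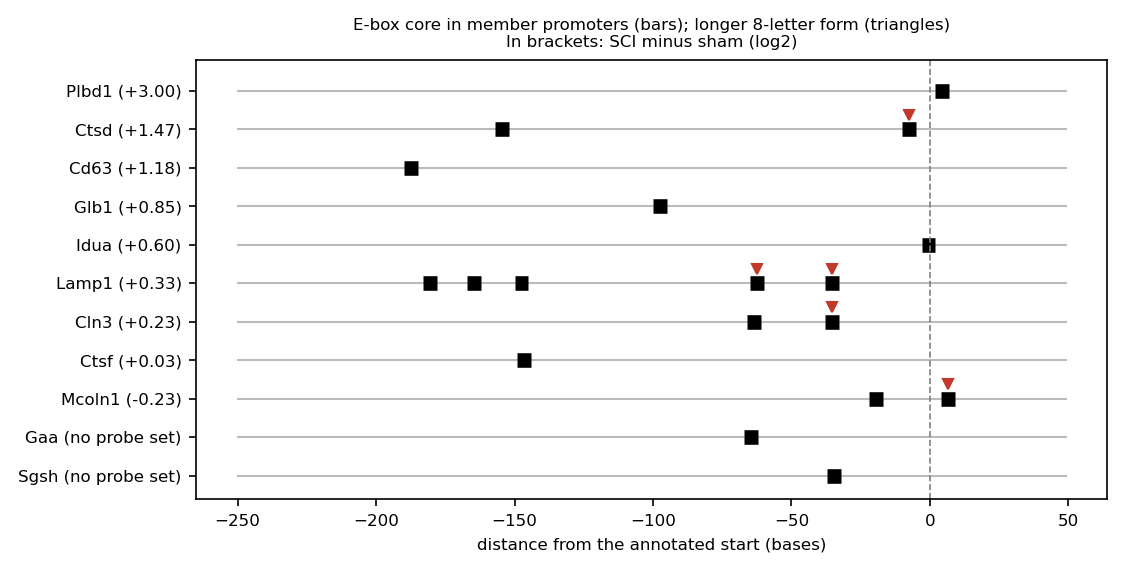
Position of the E-box core (black bars) in the promoters of the 11 members that hold it, in bases from the annotated start (x axis, 0 marked by a dashed line), with triangles over the longer 8-letter form; the difference SCI minus sham (log2) stands in brackets, and Gaa and Sgsh have no probe set. Lamp1, with 5 bars, lies below Plbd1, Ctsd, Cd63, Glb1 and Idua in the order by difference, and above Cln3, Ctsf and Mcoln1.

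Other genes of the lysosome, fixed in lists that hold no member, moved in part with the members. Of 22 other soluble lysosomal proteins 11 rose and 0 fell, with a median of 0.45. Among them the thiol reductase Ifi30 rose by 1.99 (SE 0.16) and the cholesterol-binding Npc2 by 1.14 (SE 0.10). Of 28 other lysosomal membrane proteins 8 rose and 2 fell, with a median of 0.11. The peptide and histidine transporter Slc15a3 rose by 1.79 and Laptm5, of leukocyte lysosomes, by 1.29. Lamp5, a LAMP relative of neurons, fell by 0.74, and the lipid transporter Abca2, of oligodendrocytes, fell by 0.33, a call that was lost without any 1 array but SCI 4 (adjusted p of 0.052 to 0.098). Neuronal and oligodendrocyte markers were lower in the same samples, as given above, and their part in these 2 falls was not tested.

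Genes that sort the enzymes and genes of autophagy were called in 3 of 16 and 2 of 19 cases, shares near the 14.2% of all genes tested. Of 16 sorting and maturation genes 1 rose and 2 fell (median 0.06). The sulfatase activator Sumf1 rose by 0.40 (limma adjusted p = 0.021), but not without SCI 1, SCI 2, SCI 3 or sham 4 (0.051 to 0.063). The sorting receptor Sort1 fell by 0.45 (limma adjusted p = 0.011), and the adaptor Gga3 by 0.40, but not without any 1 array other than SCI 1 and SCI 4 (0.051 to 0.10). The mannose 6-phosphate receptors M6pr and Igf2r had 0.26 and 0.24 (limma adjusted p = 0.34 and 0.13). Of 19 autophagy genes 1 rose and 1 fell (median -0.05): Gabarap rose by 0.41, a call lost without SCI 2 (adjusted p = 0.051), and Gabarapl1 fell by 0.74.

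Of 16 genes of lysosomal nutrient signalling and the remaining MiT factors, 4 rose and 0 fell (median 0.12). They include Tfec, above, and the folliculin partner Fnip2, which rose by 1.41 (SE 0.10, limma adjusted p = 2.1e-05). Of 7 inhibitors of cysteine proteases 1 rose and 0 fell. Of all genes tested 14.2% were called in either direction and 7.10% higher. The inhibitor that rose was Cstb, the cytosolic stefin B (0.86, SE 0.15). Its call was lost without SCI 3, sham 1 and sham 2 (limma adjusted p = 0.083). Cst6, Cst8 and Cst11 were dim, with sham means of 1.74 to 2.96. The secreted cystatin Cst3 had 0.12 and Cst7, cystatin F of immune cells, 0.35 (limma adjusted p = 0.064).

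**Figure D5:**
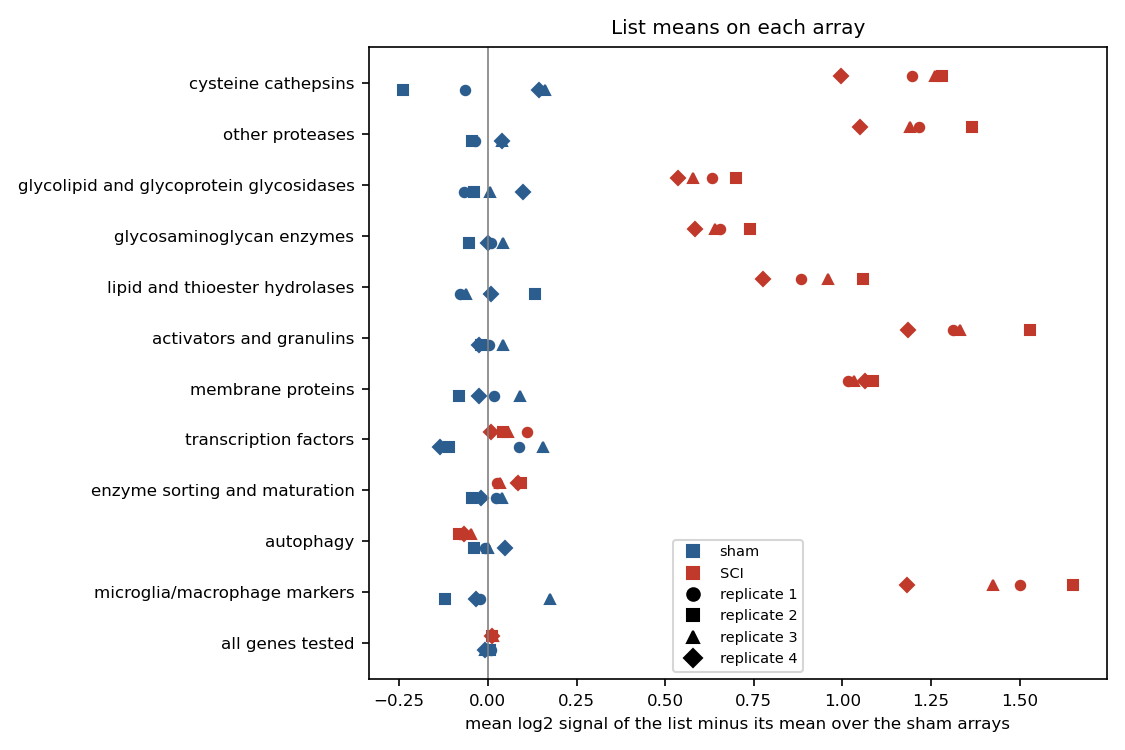
Mean log2 signal of each list on each array, minus the list's mean over the sham arrays (x axis); blue symbols are sham, red symbols SCI, and shapes give the replicate. The hydrolase, activator and membrane protein classes and the microglia and macrophage markers lie to the right in SCI, with SCI 2 ahead and SCI 4 last in most of them, while transcription factors, sorting genes and all genes tested stay near 0. The autophagy list lies slightly to the left in SCI, with mean levels of 6.77 to 6.80 against 6.81 to 6.90 in sham.

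Within a group the members tended to share the order of the arrays. SCI 2 was the highest of the 4 injured arrays in 27 of 40 members and SCI 4 the lowest in 20. The microglia and macrophage markers had the same extremes, with a mean level of 7.98 on SCI 2 and 7.51 on SCI 4. Among sham arrays, sham 3 was highest in 16 members and sham 2 lowest in 17, and the marker mean was likewise highest on sham 3 (6.50) and lowest on sham 2 (6.20). The fibroblast markers had these extremes too, at 7.85 on SCI 2, 7.31 on SCI 4, 7.01 on sham 3 and 6.49 on sham 2. The part of these cells in the members' differences was not tested. On the first principal component of all genes (45.6% of the variance), SCI 2 lay farthest from sham (30.25) and SCI 4 nearest (14.2). For sham, array 2 lay farthest from SCI (-25.27) and array 3 nearest (-19.62). These extremes were thus not particular to the members or these markers, and the counts above were not made over all genes. Set beside the markers, 7 members (Cd68, Plbd1, Ctsk, Mcoln3, Ctsc, Grn and Hexa) had a larger difference than the marker median of 1.60, and 4 of them exceeded the largest marker (2.12, C1qb). Called members with a difference below the smallest marker were Ctss and Lamp1.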

How the data were processed

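The labels name TRIzol and column purification of total RNA, then biotin labelling, for all 8 arrays. The authors deposited 1 table of log2 values for 36685 probe sets, made with Affymetrix Expression Console and RMA per the submitters' processing notes. Software versions, RMA settings, probe library and build were not given in the sources used. That the scale is log2 rests on RMA's usual output and the range of the values. Gene values were not centred. Because detection calls were not used, low signal is not taken as absence, and RMA compresses differences between dim probe sets.

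The platform annotation gave 1 symbol to 18511 probe sets, several to 575 and none to 17599. For genes with several probe sets the one with the highest mean was kept, leaving 18166 genes; no member had a second. All 40 measured members matched RefSeq (GRCr8) by gene ID. The comparison of both groups used lmFit and eBayes of limma 3.58.1 (R 4.3.3) without covariates, on all genes at once. Adjusted p-values are Benjamini-Hochberg values of that model, with 0.05 as the threshold. The fit was tested on simulated data. Precision is limited by 4 arrays a group.

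Members and lists were chosen with earlier results of these data known. Named were all 40 measured members, and in each related list the genes with the 2 smallest p and the lower calls. Further genes named with their values known are Mitf, M6pr, Igf2r, Cst3, Cst6, Cst8, Cst11, Hoxc8, Hoxa7, Slc6a5, C1qb, Cx3cr1, Cd3g, Cd8a and Mmp8. Replicates are numbered in accession order and pair nothing.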

Additional observations from a re-analysis of the deposited data

Results flagged for a closer look

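Within groups of 4 arrays, 7 of 80 member groups held an array far from the other 3 by Dixon's criterion, which chance meets in about 1 in 20 groups. On SCI 3, Cln3 was low at 6.25 (others 6.45 to 6.49), Manba was low at 5.76 (5.89 to 5.89) and Gusb was high at 5.39 (5.23 to 5.24). On SCI 4, Fuca1 was low at 7.04 (others 7.26 to 7.29). On SCI 2, Plbd2 was high at 7.09 (others 6.81 to 6.85) and Tfeb was high at 5.03 (others 4.58 to 4.65). On sham 3, Mcoln1 was low at 7.28 (others 7.65 to 7.69).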

How the results depend on the processing

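Of 40 members, 28 kept their direction and their side of the threshold under all 17 alternatives in which they were tested: leaving out each array, median centring, quantile normalization, leaving out dim genes (which removed Neu1 and Tfeb from the test), all probe sets together, mean of probe sets, a variance trend with robust eBayes, array weights, the title number as covariate, and leaving out SCI 3, sham 1 and sham 2. The count of higher members was 26 to 28 with 1 array left out, and 23 to 29 under the others. With the trend and robust prior 1 member was called lower (Ppt1, adjusted p = 0.037) and Lamp2 was called higher (0.035). Without SCI 3, sham 1 and sham 2, 3 glycolipid and glycoprotein glycosidases were called, and Ctss (0.31) and Lamp1 (0.16) were not; calls over all genes were 563 higher and 284 lower there, against 1290 and 1282. They were 802 and 639 with all probe sets tested together, which adjusts over more tests, 813 and 543 with the covariate, and 923 and 780 without SCI 2. The cause of the other changes was not tested. Ctss also lost its call with centring (0.076), all probe sets (0.10) and the covariate (0.084), and Lamp1 with quantile normalization (0.051), all probe sets (0.063) and the covariate (0.076). Among the related genes Sort1 lost its call with the covariate (0.073) and without the 3 arrays (0.064).

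Estimates near 0 changed sign without a call. Leaving out 1 array gave -0.017 to 0.077 for Ctsf, -0.088 to 0.047 for Neu1, -0.041 to 0.086 for Scarb2, -0.050 to 0.14 for Tfeb and -0.018 to 0.17 for Tfe3. Centring gave -0.0063 for Ctsf and -0.034 for Scarb2, array weights -0.025 for Scarb2, the covariate -0.082 for Tfeb, and leaving out the 3 arrays -0.12 for Scarb2 and -0.044 for Tfe3. No paired analysis was possible because the labels give the groups no shared replicate numbers.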
